A study of Rattus norvegicus with 10 samples.

Results

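The genes described here encode 5 enzymes of mitochondrial fatty acid beta-oxidation, measured in neonatal rat cardiomyocytes (heart muscle cells of newborn rats in primary culture). They are Acadvl (ENSRNOG00000018114), Acadm (ENSRNOG00000009845), Acadl (ENSRNOG00000012966), Hadha (ENSRNOG00000024629) and Hadhb (ENSRNOG00000010800), 5 of the 15584 genes in the count table. They were chosen by Ensembl identifier from a written list that pairs each identifier with its symbol. No file used here gives both, so the pairing was neither checked nor contradicted. All 5 were present in the table and all 5 passed the filter on low counts. One group of 5 libraries came from cells exposed for 24 h to 1 µM N-palmitoylglycine, an amide of the fatty acid palmitate with the amino acid glycine. The other 5 came from cells given DMSO for 24 h. Neither strain nor genotype, age in days or sex of the animals is given in the labels, and nothing in them tells whether replicate libraries stem from different cultures or animals. The p-values thus reflect library-to-library spread alone, and that spread may be technical. The series title names the ion channel TRPC5 and Brugada syndrome, an inherited arrhythmia. The comparison asked how transcripts differed after the lipid.

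Beta-oxidation shortens fatty acyl-CoA in the mitochondrial matrix, removing an acetyl-CoA unit in each round. An acyl-CoA dehydrogenase makes the first double bond, and Acadvl, Acadl and Acadm encode the dehydrogenases for very-long-, long- and medium-chain substrates. For long chains the remaining steps are carried out by the mitochondrial trifunctional protein. Its alpha subunit, encoded by Hadha, has the hydratase and hydroxyacyl-CoA dehydrogenase activities, and its beta subunit, encoded by Hadhb, has the thiolase activity. The adult heart draws much of its energy from this pathway, and its use increases in heart muscle after birth.

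The promoter windows of the trifunctional protein genes are shown because these genes, whose products form one complex, lie head to head. No measurement here links that layout to the level of either transcript. RefSeq windows of 300 bases, from 250 before to 50 after a gene's start on build GRCr8, were matched by symbol for 4 of the 5 genes (Acadvl, Acadm, Hadha and Hadhb). The counts were made on another build, mRatBN7.2, per the submitters' processing notes. The Hadha window is chr6:31907551-31907850 on the plus strand and the Hadhb window is chr6:31907451-31907750 on the minus strand. The start sites are separated by 300 bases, and the windows have 200 bases in common. Capitals mark those common bases, which in the Hadhb window are the reverse complement of those in the Hadha window.

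Hadha: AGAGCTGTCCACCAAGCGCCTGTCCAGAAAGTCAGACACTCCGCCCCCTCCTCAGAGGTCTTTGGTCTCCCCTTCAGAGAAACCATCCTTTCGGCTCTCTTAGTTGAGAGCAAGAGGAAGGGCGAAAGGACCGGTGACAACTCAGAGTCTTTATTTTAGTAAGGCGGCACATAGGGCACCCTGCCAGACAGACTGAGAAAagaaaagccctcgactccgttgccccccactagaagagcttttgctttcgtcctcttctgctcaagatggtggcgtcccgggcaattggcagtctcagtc

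Hadhb: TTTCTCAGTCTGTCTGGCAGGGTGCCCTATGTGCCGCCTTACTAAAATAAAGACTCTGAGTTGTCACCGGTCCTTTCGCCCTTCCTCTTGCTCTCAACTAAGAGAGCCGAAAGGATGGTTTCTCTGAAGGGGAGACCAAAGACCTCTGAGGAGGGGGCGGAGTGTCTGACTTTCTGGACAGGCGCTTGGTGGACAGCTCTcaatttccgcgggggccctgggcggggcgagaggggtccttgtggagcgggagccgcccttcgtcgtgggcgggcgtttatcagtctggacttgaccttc

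The window of Acadvl, the dehydrogenase gene with the largest difference between the groups, is chr10:55236656-55236955 on the minus strand. Capitals mark the letters AGGTCA, a motif read by many nuclear receptors.

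Acadvl: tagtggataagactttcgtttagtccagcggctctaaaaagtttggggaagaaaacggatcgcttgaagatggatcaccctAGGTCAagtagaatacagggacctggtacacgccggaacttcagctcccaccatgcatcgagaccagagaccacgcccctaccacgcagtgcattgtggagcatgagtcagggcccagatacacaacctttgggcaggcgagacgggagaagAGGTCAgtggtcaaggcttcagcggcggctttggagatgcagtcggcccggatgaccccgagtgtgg

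The motifs below were searched on both strands in the 4 windows. AGGTCA was found at 2 places in the Acadvl window, starting 169 and 17 bases before the start, and at 1 place in the Hadhb window, after the start. It was in 16.2% of 33469 RefSeq windows of this length. TGACGTCA, the cAMP response element, was found only in the Acadm window, 103 bases before the start, and in 1.83% of all windows. GGGCGG, the GC box, was found at 3 places in the Acadm window, 1 in the Hadha window and 4 in the Hadhb window, and in 33.1% of all windows. The Hadha match and the first Hadhb match lie within the common bases and are the same site. TCAAGGTCA, the estrogen-related receptor element, contains the AGGTCA motif, and was in none of the 4 windows and in 0.433% of all. A pair of exact AGGTCA motifs in one direction with 1 base between them was likewise in none of the 4 and in 0.0538% of all. PPAR receptors read this layout, and inexact copies were not searched. The Acadvl match 17 bases before the start is followed, after 1 base, by tggtca, which differs from AGGTCA at 1 letter. Such near copies were not sought in the other windows, and their share of all windows is not known. These are matches of letters and say nothing of binding.

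Library totals ranged from 56580073 to 78946785 counts. Libraries 1 to 3 of both groups stood apart from libraries 4 and 5 of both groups. On principal component 1, which held 32.4% of the variance, the former lay between −34.0 and −14.8 and the latter between 32.8 and 43.4. The labels name no batch for these subsets. Their TMM scaling factors did not overlap either, at 0.967 to 0.993 in libraries 1 to 3 and 1.02 to 1.05 in libraries 4 and 5, and their totals were 59966602 to 78946785 and 56580073 to 64968903. Results are therefore given for all 10 libraries and within each subset. The part of scaling and depth in the differences between the subsets was not tested. Markers of cardiomyocytes and of other heart cells are not analysed here, because the table's identifiers could not be paired with symbols. Other genes of the pathway are not analysed here for the same reason. In bulk RNA, fewer cells of a type and less RNA per cell cannot be told apart.

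Across all 10 libraries each of the 5 transcripts had a higher mean with palmitoylglycine than with DMSO, by a fitted 1.06-fold (Acadl) to 1.23-fold (Hadhb), and none passed the adjusted threshold. The fold was 1.19 for Acadvl, 1.17 for Hadha and 1.09 for Acadm. edgeR's quasi-likelihood test called 0 of the 5 at an adjusted p under 0.05, against 0% of all 15321 genes tested. At an unadjusted p under 0.05 it had 2 of the 5, Hadha and Acadvl, both higher, where 5.31% of all genes were higher at that level. DESeq2 called 0 of the 5, against 0.879% of all genes, and limma-voom with quality weights called 0 of the 5, against 0% of all genes. The median log2 fold change of the 5 was 0.23, and that of all genes tested was −0.0012. No member had all palmitoylglycine libraries above all DMSO libraries, which 1.05% of all genes had.

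Acadvl encodes the very-long-chain dehydrogenase, which is bound to the inner mitochondrial membrane. Its level in the DMSO libraries 1 to 5 was 116.1, 118.2, 131.3, 114.4 and 117.7 CPM, the usual count rate relative to the TMM-scaled library total. In the palmitoylglycine libraries 1 to 5 it was 147.2, 153.4, 162.0, 132.6 and 116.6 CPM. Palmitoylglycine libraries 1 to 4 lay above every DMSO library, and library 5 lay among the DMSO values. The treated mean was 142.4 ± 17.9 CPM (SD, n = 5), and the DMSO mean was 119.5 ± 6.74 CPM (SD, n = 5). Its log2 fold change was 0.25 ± 0.09 (SE), with an unadjusted 95% interval from 0.05 to 0.45. Its unadjusted p in edgeR was 0.0172 and its adjusted p 0.417.

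Acadm encodes the medium-chain dehydrogenase, the enzyme lacking in the commonest inherited disorder of fatty acid oxidation. In DMSO libraries 1 to 5 it stood at 77.2, 73.8, 77.3, 68.9 and 71.6 CPM, and in palmitoylglycine libraries 1 to 5 at 82.8, 84.6, 86.8, 76.3 and 72.1 CPM. Palmitoylglycine libraries 1 to 3 lay above every DMSO library, and libraries 4 and 5 lay within the DMSO range. Its log2 fold change was 0.13 ± 0.07 (SE), with an interval from −0.02 to 0.28, and the edgeR adjusted p was 0.551.

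Acadl encodes the long-chain dehydrogenase. In DMSO libraries 1 to 5 its level was 124.6, 117.7, 114.5, 96.8 and 99.4 CPM, and in palmitoylglycine libraries 1 to 5 it was 137.0, 129.7, 136.8, 93.5 and 87.5 CPM. Acadl was the one member whose libraries 1 to 3 did not overlap its libraries 4 and 5, whatever the treatment, and 21.3% of all genes were apart in this way. Its level was 126.7 ± 9.49 CPM (SD, n = 6) in the former and 94.3 ± 5.15 CPM (SD, n = 4) in the latter, a ratio of 1.34, given with no test because the subsets were seen in these same data. Between treatments the log2 fold change was 0.08 ± 0.14 (SE), with an interval from −0.23 to 0.39 and an edgeR adjusted p of 0.897. Leaving out single libraries moved it between 0.02, without palmitoylglycine library 1 or 3, and 0.17, without palmitoylglycine library 5.

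Hadha encodes the alpha subunit of the trifunctional protein. Its DMSO libraries were closely grouped, at 248.9, 241.4, 252.5, 251.3 and 259.6 CPM for numbers 1 to 5. The palmitoylglycine libraries stood at 311.3, 308.3, 320.0, 272.7 and 256.6 CPM. Libraries 1 to 4 lay above every DMSO library, and library 5 lay just under the highest DMSO value. The means were 293.8 ± 27.5 CPM (SD, n = 5) and 250.7 ± 6.57 CPM (SD, n = 5). The log2 fold change of Hadha was 0.23 ± 0.07 (SE), with an interval from 0.07 to 0.38. The unadjusted p in edgeR was 0.00805, a level that 1.97% of all genes went below, and the adjusted p was 0.405.

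Hadhb encodes the beta subunit, with which the alpha subunit is assembled into one complex. DMSO libraries 1 to 5 stood at 127.6, 173.7, 133.2, 185.1 and 183.3 CPM, and palmitoylglycine libraries 1 to 5 at 231.7, 219.7, 161.4, 192.7 and 179.6 CPM. DMSO libraries 1 and 3 were low, palmitoylglycine libraries 1 and 2 were high, and palmitoylglycine library 3 lay below 3 of the DMSO libraries. The log2 fold change, 0.30, was the largest of the 5, with a standard error of 0.14, an interval from −0.01 to 0.60 and an edgeR adjusted p of 0.487. The spread within each group, 28.0 CPM with DMSO and 28.8 CPM with palmitoylglycine (SD, n = 5), was far above the counting error, which was 0.658% to 1.53% of the count over all members and libraries. That error covers counting alone.

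**Figure D1:**
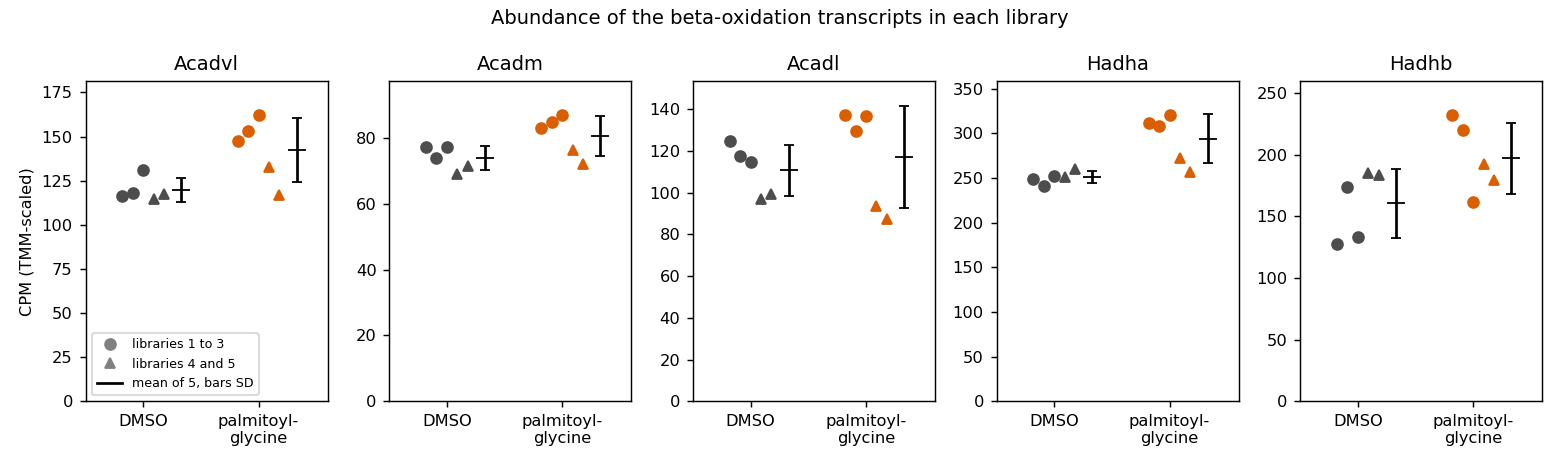
Abundance of each transcript in CPM (vertical axes from 0) in the 5 DMSO libraries (gray) and 5 palmitoylglycine libraries (orange), in number order from left to right, with circles for libraries 1 to 3, triangles for 4 and 5, and the mean ± SD of 5 at the side. For Acadvl, Hadha, Acadm and Acadl the palmitoylglycine circles lie above the DMSO circles, and for Hadhb the circles overlap.

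Within libraries 1 to 3, Hadha and Acadvl passed the adjusted threshold as higher with palmitoylglycine, and Acadm, Acadl and Hadhb did not. Acadvl, Acadm, Acadl and Hadha, 4 of the 5, had all palmitoylglycine libraries above all DMSO libraries, against 16.0% of all genes. For Hadha the treated mean was 313.2 ± 6.04 CPM (SD, n = 3), and the DMSO mean was 247.6 ± 5.67 CPM (SD, n = 3). For Acadvl these means were 154.2 ± 7.43 CPM (SD, n = 3) and 121.8 ± 8.23 CPM (SD, n = 3). In these 6 libraries edgeR called 2 of the 5, both higher, where 2.69% of all genes were called higher. All 5 were higher at an unadjusted p under 0.05, as 13.0% of all genes were. The 2 genes called were Hadha and Acadvl. Hadha had a log2 fold change of 0.34 ± 0.05 (SE) and an edgeR adjusted p of 0.0234. Acadvl had 0.34 ± 0.07 (SE) and an edgeR adjusted p of 0.0414. Acadm had 0.16 ± 0.05, Acadl 0.18 ± 0.06 and Hadhb 0.50 ± 0.17 (log2, SE), with edgeR adjusted p of 0.120, 0.116 and 0.125. Neither call was made without DMSO library 1 or 2 or without palmitoylglycine library 1, 2 or 3, when the adjusted p was 0.0556 to 0.118 for Hadha and 0.0894 to 0.164 for Acadvl. The log2 fold changes in those runs stayed at 0.32 to 0.36 for Hadha and 0.31 to 0.38 for Acadvl, while the genes called in the whole table went from 697 to between 7 and 72. Without DMSO library 3 both were made, with edgeR adjusted p of 0.0237 and 0.0268. In that run the genes called in the whole table rose to 1121 of 15363, 598 of them higher.

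In libraries 4 and 5 the estimated differences were smaller. edgeR called 0 of the 5 genes there, against 0.0325% of all genes, and 0 of the 5 had an unadjusted p under 0.05, against 3.11% of all genes. The log2 fold change was 0.10 for Acadvl, 0.08 for Acadm, −0.12 for Acadl, 0.05 for Hadha and 0.01 for Hadhb. Their unadjusted 95% intervals reached from −0.13 to 0.34, −0.14 to 0.30, −0.33 to 0.10, −0.13 to 0.23 and −0.18 to 0.21. Acadm had both palmitoylglycine libraries above both DMSO libraries, as 15.7% of all genes did, and Acadl had both below, as 16.6% did. The other members overlapped.

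Whether the response differed from one subset to the other was tested as an interaction. It was negative for each gene, meaning a smaller or opposite difference in libraries 4 and 5. edgeR's interaction test called 0 of the 5, against 0.0587% of all genes. The log2 interaction was −0.29 ± 0.07 (SE) for Hadha and −0.29 ± 0.09 for Acadl, with unadjusted p of 0.00375 and 0.00931 and edgeR adjusted p of 0.277 and 0.311. For Hadhb it was −0.48 ± 0.23, for Acadvl −0.24 ± 0.11 and for Acadm −0.08 ± 0.09 (log2, SE), with edgeR adjusted p of 0.499, 0.498 and 0.788. The members' responses were therefore not shown to differ between the subsets after adjustment.

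**Figure D2:**
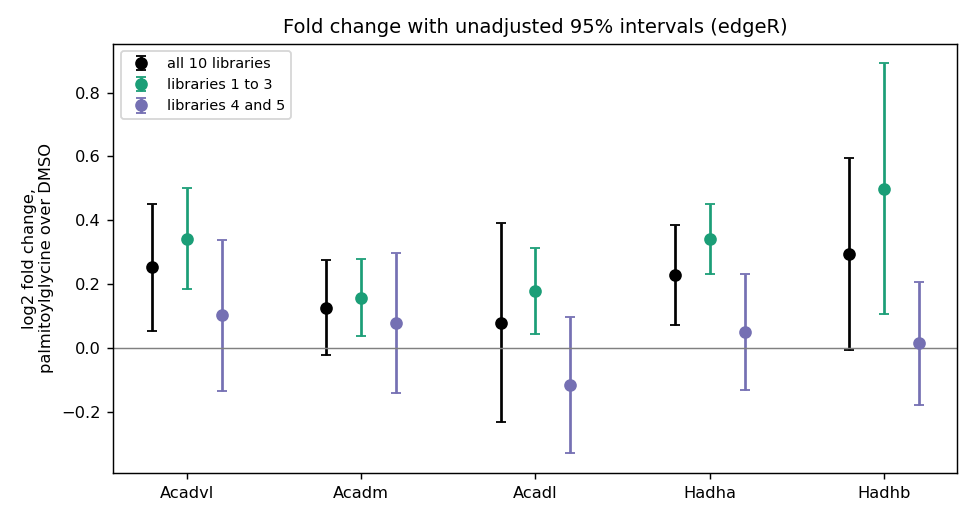
Log2 fold change of each gene, palmitoylglycine over DMSO (vertical axis), with unadjusted 95% intervals from edgeR, in all 10 libraries (black), libraries 1 to 3 (green) and libraries 4 and 5 (purple). The green points lie between 0.16 and 0.50, and the purple points between −0.12 and 0.10 with every interval across 0.

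With a term for the subsets over all 10 libraries, edgeR had 4 of the 5 genes at an unadjusted p under 0.05, all higher, where 9.66% of all genes were higher at that level. The gene left out was Acadl. With the replicate number as a block it had the same 4, where 7.81% of all genes were higher. Neither fit called a member at an adjusted p under 0.05, and the lowest edgeR adjusted p was 0.117 for Hadha with the subset term and 0.260 for Acadvl with the block. DESeq2 with the subset term called Hadha and Acadvl, 2 of the 5, both higher, where 3.06% of all genes were called higher, with adjusted p of 0.0210 and 0.0245. Both DESeq2 calls were lost without DMSO library 1 or 2 or palmitoylglycine library 1, 2 or 3, and Hadha's also without DMSO library 3. In the first 5 of those runs the log2 fold changes were 0.20 to 0.22 for Hadha and 0.21 to 0.25 for Acadvl, and the genes called in the whole table went from 907 to between 274 and 510. Without palmitoylglycine library 5, DESeq2 called 3 of the 5, all higher, with Acadm as the third at an adjusted p of 0.0413, and 5.34% of all genes were called higher. At an unadjusted p under 0.05, DESeq2 with the subset term and limma-voom each had 4 of the 5, all higher, where 10.2% and 10.1% of all genes were higher.

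The balance of the trifunctional protein transcripts varied between libraries. Within a library the ratio of Hadhb to Hadha counts needs no scaling between libraries, and it took values at 2 separate levels. It was 51.3, 72.0, 52.8, 73.7 and 70.6 Hadhb counts per 100 Hadha counts in DMSO libraries 1 to 5. In palmitoylglycine libraries 1 to 5 it was 74.4, 71.3, 50.5, 70.7 and 70.0. DMSO libraries 1 and 3 and palmitoylglycine library 3 thus lay between 50.5 and 52.8, and the other 7 libraries lay between 70.0 and 74.4. The low level occurred in both treatments and only in libraries numbered 1 or 3, and no label separates these 3 libraries from the rest. In those libraries Hadhb had the lowest levels of its treatment, at 127.6, 133.2 and 161.4 CPM. Hadha was not low there, at 248.9, 252.5 and 320.0 CPM. The mean log2 ratio of Hadha to Hadhb was 0.66 ± 0.26 (SD, n = 5) with DMSO and 0.58 ± 0.23 (SD, n = 5) with palmitoylglycine, a difference smaller than the spread within either group. Leaving out each library in turn, Hadhb's log2 fold change ranged from 0.22 without DMSO library 1 to 0.36 without palmitoylglycine library 3. Among libraries at the higher ratio, it was 0.23 without palmitoylglycine library 1 and 0.35 without DMSO library 4 or 5. The 3 libraries at the low ratio were not left out together. The part of the low ratio in Hadhb's fold change was therefore not tested.

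The ratios among the dehydrogenases had smaller SDs within the groups than the ratio of Hadha to Hadhb. Acadm had 66.5, 62.5, 58.9, 60.2 and 60.8 counts per 100 Acadvl counts in DMSO libraries 1 to 5, and 56.3, 55.2, 53.6, 57.6 and 61.8 in palmitoylglycine libraries 1 to 5. Palmitoylglycine libraries 1 to 4 lay below every DMSO library and library 5 did not. The log2 ratio of Acadvl to Acadl was 0.12 ± 0.16 (SD, n = 5) with DMSO and 0.30 ± 0.16 (SD, n = 5) with palmitoylglycine, and the groups overlapped. That of Acadm to Acadl was −0.58 ± 0.10 (SD, n = 5) and −0.51 ± 0.21 (SD, n = 5). With palmitoylglycine it was −0.67 in libraries 1 to 3 and −0.29 in libraries 4 and 5. With DMSO it was −0.64 and −0.48, so it was higher in libraries 4 and 5 in both treatments.

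**Figure D3:**
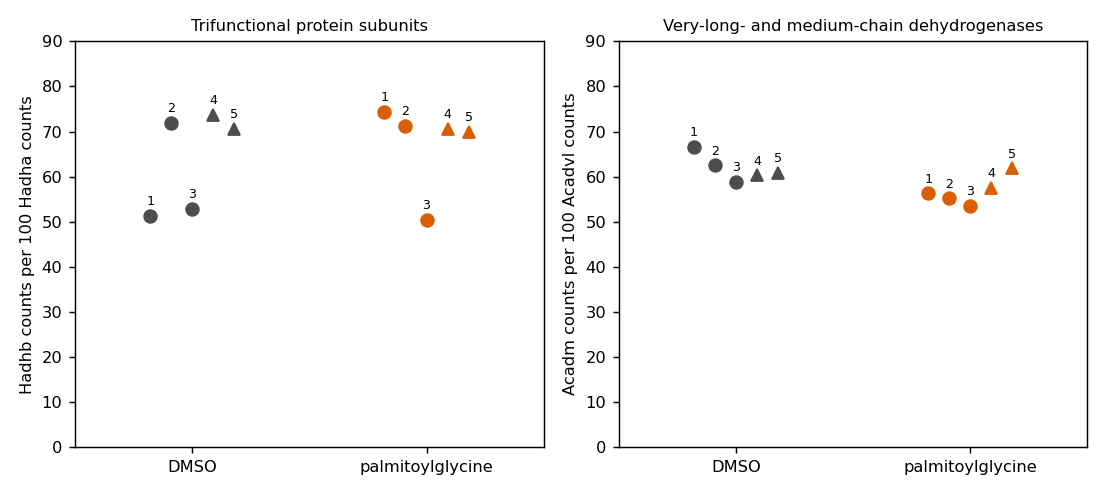
Counts of Hadhb per 100 Hadha counts (left) and of Acadm per 100 Acadvl counts (right) in each library, on vertical axes from 0, by treatment, with circles for libraries 1 to 3, triangles for 4 and 5, and the library number above each point. DMSO libraries 1 and 3 and palmitoylglycine library 3 sit near 50 on the left, with all others at 70.0 or above, and no such break is seen on the right.

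Across the 10 libraries the members' levels (log2 CPM) correlated to unequal degrees. These correlations are descriptions, since the libraries share the treatment and the subsets. Pearson's r was 0.94 for Acadvl with Hadha, 0.93 for Acadvl with Acadm, 0.85 for Acadm with Hadha and 0.83 for Acadm with Acadl. Hadha and Hadhb, the subunits of one complex, had r = 0.53, and among the other 9850 genes averaging 10 CPM or more, Hadhb ranked 1763 in likeness to Hadha. Acadvl ranked 25 in likeness to Hadha. Hadhb had r = 0.34 with Acadvl, 0.14 with Acadm and −0.01 with Acadl. After the mean of each treatment within each subset was removed, Hadha had r = 0.93 with Acadm and 0.81 with Acadvl, whereas Hadha with Hadhb had −0.50. These values rest on few libraries, with 2 per treatment in libraries 4 and 5. They include the libraries with the low ratio of Hadhb to Hadha. Among the dehydrogenases, r was then 0.76 for Acadvl with Acadm and 0.45 for Acadm with Acadl. For Acadvl with Acadl it fell from 0.68 to 0.01.

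The genes most like the members were sought by Pearson's r with the mean of the 5 standardized levels over the 10 libraries, among 9846 other genes at that level. They are given by identifier, since no symbol could be paired with them. ENSRNOG00000018044 had r = 0.99, with levels of 82.7 to 97.6 CPM with DMSO and 88.9 to 138.9 CPM with palmitoylglycine. ENSRNOG00000012722 had r = 0.98, with 20.8 to 21.7 CPM and 21.0 to 29.2 CPM. In both the groups overlapped, and the edgeR adjusted p was 0.413 and 0.396. After the mean of each treatment within each subset was removed, these genes ranked only 1307 and 1369 in likeness to the members.

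**Figure D4:**
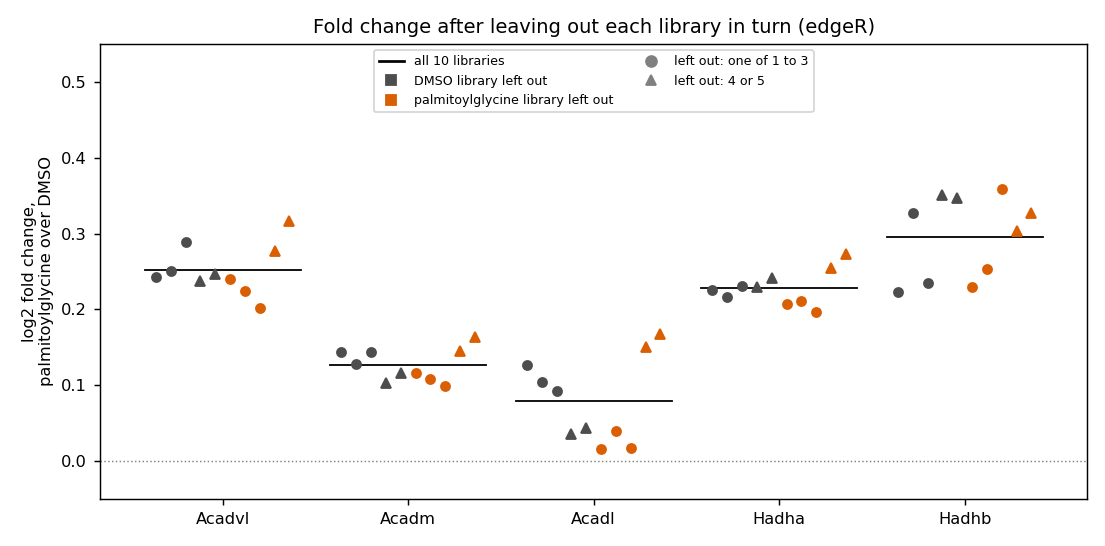
Log2 fold change of each gene, palmitoylglycine over DMSO (vertical axis), after leaving out each library in turn, with the value from all 10 libraries as a black line, colour for the treatment and shape for the subset of the library left out. Hadha stays between 0.20 and 0.27, Hadhb ranges from 0.22 to 0.36 and Acadl from 0.02 to 0.17, and all points are above 0.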

How the data were processed

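RNA captured on oligo(dT) beads was sequenced in 5 DMSO and 5 palmitoylglycine libraries. The deposited values are unnormalized read counts, per the file headers. Trimmomatic and build mRatBN7.2 are named in the submitters' processing notes. Aligner, counter, annotation and strand setting: not given in the sources used here. The protocols describe no strand marking, so overlapping genes may share reads. Of 15584 genes, filterByExpr kept 15321. Treatments were compared by quasi-likelihood F-tests in edgeR (version 4.0.16, R 4.3.3, TMM factors, group only, two-sided), with Benjamini-Hochberg adjustment over all genes and a threshold of 0.05. Standard errors came from the F statistic. DESeq2 1.42.0 and limma 3.58.1 were alternatives. Simulated counts were fitted by edgeR (group alone, subset term or replicate block), by DESeq2 (group alone) and by limma-voom. The changes put in were larger than those of the members, and no subset difference was put in. DESeq2 with the subset term, the fits within a subset and the interaction were not tried on simulated counts. Log2 CPM used a prior count of 2, and log2 ratios added 0.5 to counts. No 2 libraries of a group looked like repeat sequencing of one library (mean chi-square per gene 31.1 to 254.4 over 20 pairs). This does not tell whether they came from different cultures or animals. Deviations from the group mean of same-numbered libraries correlated at 0.124, 0.125, 0.205, 0.362 and 0.300, and a replicate block was also fitted. Same-numbered libraries share a subset, and the subset difference was not removed, so these values do not show pairing by number. All 5 members were named whatever they showed, with 2 most alike identifiers. Members, lists and subset fits were chosen with earlier results of these data known. Pathway and marker lists could not be applied, since 0 identifiers matched the reference.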

Additional observations from a re-analysis of the deposited data

Results flagged for a closer look

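In 2 cases a value lay far from the other 4 libraries of their group, by the gap to the nearest value relative to the group's range. For the log2 ratio of Hadha to Hadhb, palmitoylglycine library 3 stood at 0.99, and the other palmitoylglycine libraries at 0.43 to 0.52. DMSO libraries 1 and 3, at 0.96 and 0.92, had like ratios, and as a pair they did not stand out by this measure. Acadvl stood at 131.3 CPM in DMSO library 3, and at 114.4 to 118.2 CPM in the other DMSO libraries. Without that library the log2 fold change of Acadvl was 0.29, with an edgeR adjusted p of 0.416. Of 18 sets of 5 values examined, 2 stood out, and chance gives about 1 in 20.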

How the results depend on the processing

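Over 22 alternatives for each of the 5 genes, 105 of 110 fold changes kept their direction and stayed outside an adjusted p of 0.05. The exceptions were Acadl in libraries 4 and 5 alone, which reversed to −0.12, and Hadha and Acadvl, which passed in libraries 1 to 3 alone (0.34 each) and in DESeq2 with the subset term (0.23 and 0.25), 2 genes in each. Leaving out each library in turn, these log2 values ranged from 0.32 to 0.36 for Hadha and 0.31 to 0.40 for Acadvl in libraries 1 to 3, with 0 to 2 genes called, and from 0.20 to 0.26 and 0.21 to 0.29 in DESeq2 with the subset term, with 0 to 3 called; these runs were chosen after seeing the data. At an unadjusted p under 0.05, the 2 genes became 4 in limma-voom, under the replicate block, under the subset term and in DESeq2 with that term, 5 in libraries 1 to 3 alone and 0 in libraries 4 and 5 alone. The genes at that level in the whole table changed too, from 1584 to 3144, 2389, 2925, 3109, 3814 and 478 in the same order. The replicate block changed no call at the adjusted threshold. The cause of these changes was not tested. The fits within a subset also had fewer libraries. All 60 alternative interaction values kept their direction and stayed outside the threshold. The log2 ratio of Acadm to Acadl with palmitoylglycine was −0.29 in libraries 4 and 5 alone, against −0.51. With DMSO it was −0.48 there, against −0.58. Likeness to the members fell from 0.99 to 0.93 (Spearman) and 0.61 (deviations within group and subset) for ENSRNOG00000018044, and from 0.98 to 0.79 and 0.60 for ENSRNOG00000012722. The 5 members had 4266 to 23123 counts in each library. The part of depth in these results was not tested.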
